A study of Mus musculus with 10 samples.

Results

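Sorted ileal epithelium from 10 mice was sequenced, and the libraries differed in how much of their RNA came from genes of dividing cells. The 3 libraries with the highest and the 3 with the lowest level of 10 proliferation genes were set against each other here, 6 of the 10 libraries in all. They were chosen by measured values: the mean log2 CPM (CPM, counts scaled by each library's total, with a prior count of 2) of Mki67, Top2a, Ccnb1, Cdk1, Birc5, Plk1, Aurkb, Mcm2, Mcm5 and Rrm2. The crypt-rich side held dIEC 9 (female), WT 2 (male) and WT 6 (male), and the villus-rich side held WT 4 (male), WT 10 (female) and dIEC 7 (female). Each library came from the live CD45- EpCAM+ cells of 1 ileum. Every mouse, controls included, was homozygous for a floxed H2-Ab1 allele, which encodes the beta chain of an MHC class II molecule. WT mice were H2-Ab1 fl/fl; Villin:Cre- and dIEC mice were H2-Ab1 fl/fl; Villin:Cre+, according to the sample labels, where the promoter of villin, a gene of intestinal epithelial cells, drives Cre. The series' design text gives Cre- for both genotypes, and no age, treatment or dissection record that could separate the sides is given in the sources used here. Each side held 2 WT libraries and 1 dIEC library.

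The small intestinal epithelium is renewed from crypts, where Lgr5-expressing stem cells and their transit-amplifying daughters divide beside Paneth cells. Daughter cells stop dividing as they move onto the villus, mature into absorptive enterocytes or into goblet, enteroendocrine and tuft cells, and are shed at the tip. A bulk library of sorted epithelium averages over that axis. In such a sample fewer cells of a type and less RNA per cell cannot be told apart, which holds for every level below.

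The score ran from 5.81 in dIEC 9 through 5.29 in WT 2 and 5.22 in WT 6 to 3.38 in WT 4, 3.05 in WT 10 and 2.46 in dIEC 7. Just inside the upper limit lay WT 6 and just outside it dIEC 3, at 4.84. Just inside the lower limit lay WT 4 and just outside it dIEC 5, at 4.25. The gap between dIEC 5 and WT 4 was thus wider than that between WT 6 and dIEC 3. The other libraries, dIEC 1 and WT 8, scored 4.60 and 4.45. The side means were 5.44 and 2.96. The same 6 libraries were picked when the score was computed from TMM-scaled CPM (trimmed mean of M values, a correction for library composition) or from the 60 genes of the replication and mitosis lists used below, none of them in the score. Both use the same genes or the same processes as the score, so the equal choice is no independent check.

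**Figure D1:**
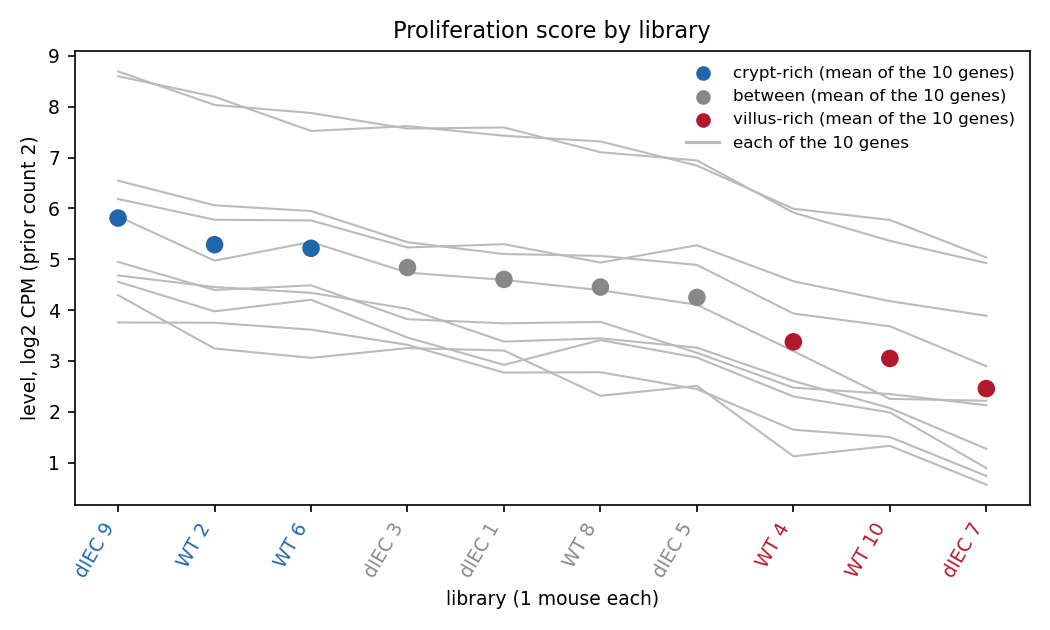
Level of the 10 score genes (grey lines) and their mean (points) in each of the 10 libraries, in log2 CPM with a prior count of 2, ordered by the mean. The 3 crypt-rich libraries lie between 5.22 and 5.81 and the 3 villus-rich ones between 2.46 and 3.38, with 4 libraries between them.

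The names of the sides were checked against 4 markers. Values are TMM-scaled CPM, always in the order dIEC 9, WT 2 and WT 6 for the crypt-rich side and WT 4, WT 10 and dIEC 7 for the villus-rich side. Mki67, a nuclear protein of cycling cells and itself a score gene (chr7:135689784-135716361, minus strand; positions are mm10, GENCODE vM21), stood at 319.6, 256 and 172 against 72.4, 60.7 and 40.3. Olfm4, a secreted glycoprotein of crypt base stem cells (chr14:79984081-80023139, plus strand), stood at 854, 656 and 436 against 246, 90.8 and 75.1, with WT 4 the highest of its side. Apoa4, an apolipoprotein of chylomicrons made by villus enterocytes (chr9:46240696-46243459, plus strand), stood at 1069, 2173 and 5021 against 11108, 9405 and 11420.0. Alpi, the intestinal alkaline phosphatase of the brush border (chr1:87098002-87101606, minus strand), stood at 519.7, 815 and 1049 against 1832, 1732 and 2142. The sides did not overlap in any of the 4, and the 3 markers outside the score lay as the names have it. Of the 12950 fitted genes outside the score, 7236 did not overlap either. Lack of overlap by itself therefore sets no gene apart, here or below. Their log2 fold changes (crypt-rich over villus-rich, with genotype as a covariate) were 2.37 (SE 0.60) for Olfm4, -2.04 (SE 0.48) for Apoa4 and -1.21 (SE 0.26) for Alpi. Mean levels were 649 ± 209 against 137 ± 94.3 CPM (mean ± SD, n = 3 and 3) for Olfm4, 2754 ± 2039 against 10644 ± 1084 CPM (mean ± SD, n = 3 and 3) for Apoa4 and 794 ± 265 against 1902 ± 214 CPM (mean ± SD, n = 3 and 3) for Alpi.

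H2-Ab1, the floxed gene, read 0.768 to 3.11 CPM in the 5 dIEC libraries and 63.1 to 366 in the 5 WT libraries, which matches the sample labels. Totals in the 6 libraries ran from 9469663 to 13484363 counts and did not follow the sides, whereas composition did. The most abundant genes that together made up 50% of a library's counts numbered 807, 729 and 631 on the crypt-rich side and 471, 523 and 442 on the villus-rich side. The TMM factors were 1.21, 1.15 and 1.07 against 0.88, 0.90 and 0.81. Scaling by total counts alone therefore moved the median log2 fold change of all genes by 0.32, and directions below are given under TMM, with the exceptions named.

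Of 13932 genes listed, 12960 had enough counts to be fitted, and 12950 of those lay outside the score. By edgeR's quasi-likelihood fit with genotype as a covariate, 4557 genes (35.2%) had a Benjamini-Hochberg adjusted p under 0.05. Of these, 2608 (20.1%) were higher and 1949 (15.1%) lower in crypt-rich libraries. The sides were built from the same RNA, so such a call says only that a difference exceeded the spread within the sides. It tests no treatment, and nothing is read from the background shares. These are 20.1% higher and 15.1% lower, and they give the scale for every list count below. Scaling by total counts gave 4039 higher and 629 lower, so that 86.5% of the calls were higher in place of 57.2%, and no called gene named here changed sign. DESeq2 gave 2365 higher and 2395 lower (49.7% higher), and a fit of the score over all 10 libraries 3282 and 3521 (48.2% higher). The excess of higher calls thus depended on the setting. In the main edgeR fit the higher group reached further. There 1543 genes were called at 2-fold or more and 387 at 4-fold or more, against 378 and 19 of the lower group. Without dIEC 9 the counts were 1240 and 620, without WT 2 1516 and 563, and without dIEC 7 1346 and 648. Without WT 4 they were 2115 and 1093. Each side held 1 dIEC library, and the genotype covariate absorbs the one that remains when the other is left out. The fits without dIEC 9 and without dIEC 7 therefore both compare WT libraries alone, here and below, and are not separate checks. WT libraries fitted by themselves gave 1296 and 636.

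**Figure D2:**
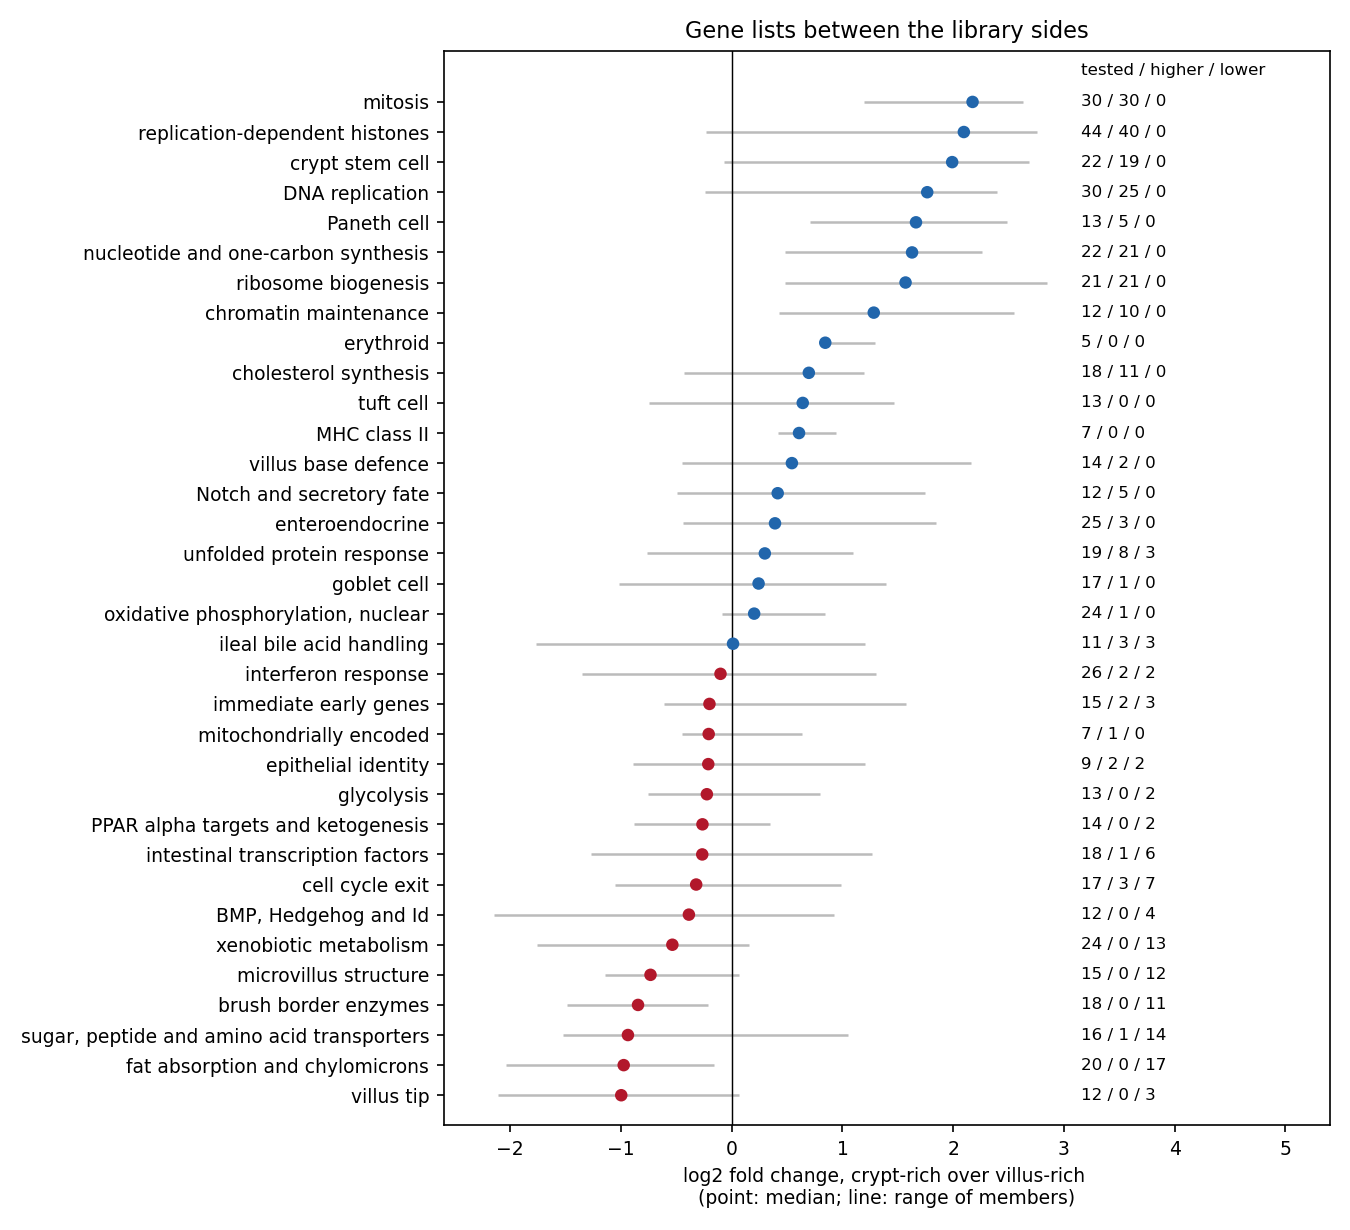
Log2 fold change (crypt-rich over villus-rich) of the gene lists with 5 or more fitted members: the point is the median and the line the range, and the numbers at the right count members fitted, called higher and called lower. The list medians run from 2.17 for mitosis to -0.98 for fat absorption, with villus tip genes just below it.

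The 12 genes highest in crypt-rich libraries by fold change (called, mean of at least 10 CPM, score genes left out) included 4 histone genes and genes of replication and mitosis. The 12 were Hist1h3b (2.66), Bub1 (2.63), Hist1h1b (2.59), Pbk (2.54), Hist1h2bb (2.47), Slfn9 (2.44), Aqp4 (2.42), Esco2 (2.40), Nusap1 (2.39), Ccna2 (2.39), Rfc4 (2.39) and Hist1h2bm (2.38), all as log2 fold changes. Aqp4, a water channel, stands apart from them in function and read 36.9, 33.7 and 27.6 CPM against 11.4, 6.46 and 2.76. The 12 lowest were Aqp7 (-2.31), Trpc1 (-2.29), Bmp8a (-2.06), Apoa4 (-2.04), Ppm1j (-2.03), Gpr17 (-2.01), Gprc5a (-1.95), Rab30 (-1.79), Apoc2 (-1.77), Cyp2c29 (-1.76), Cidec (-1.75) and Acsf2 (-1.74). Aqp7 carries glycerol, Apoc2 and Apoa4 are apolipoproteins, Cidec coats lipid droplets and Acsf2 is an acyl-CoA synthetase. Aqp7 stood at 6.54, 6.04 and 12.7 CPM against 30.7, 62.4 and 38.9, so one aquaporin was higher and another lower in the same libraries. Rab30, a Golgi GTPase, was even on the villus-rich side, with 12.8, 13.1 and 25.5 against 61.5, 62.2 and 62.1. Cyp2c29 was called although its sides overlapped, at 0.917, 11.2 and 20.6 against 44.9, 53.0 and 6.10.

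Genes of mitosis, beside the score, were called higher in 30 of 30 cases, with a median log2 fold change of 2.17; the median over all fitted genes was 0.05. Kif11, the motor that pushes spindle poles apart, read 95.0, 57.1 and 54.7 CPM on the crypt-rich side and 20.3, 13.6 and 12.5 on the villus-rich side. Smc2, a condensin subunit, read 68.1, 45.6 and 42.2 against 16.1, 13.6 and 8.98. The midzone proteins Kif23 and Prc1 had log2 fold changes of 1.65 (SE 0.18) and 1.78 (SE 0.16). All 30 were called again whichever 1 of the 6 libraries was left out, in fits that kept the same sides. The score holds Plk1, Aurkb and other mitosis genes, so the direction of this list was built into the choice of sides.

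DNA replication genes were called higher in 25 of 30 cases and lower in 0, with a median of 1.77. The score also holds Mcm2, Mcm5 and Rrm2, so this direction was built in too. Mcm6, of the replicative helicase, read 129, 87.2 and 85.7 against 36.2, 32.9 and 23.3, and Ccna2, the cyclin of S and G2 phase, read 101, 71.8 and 82.9 against 22.6, 16.9 and 12.5. Pcna, the sliding clamp of DNA polymerase, differed less, with 85.8, 70.0 and 70.7 against 45.0, 59.9 and 40.6 and a log2 fold change of 0.73 (SE 0.18). The members not called included Mcm10, Slbp, Ccne2 and Cdc6. Mcm10, a loading factor among the most abundant of the list by count, read 45.4, 41.7 and 37.2 against 51.6, 44.2 and 60.7, with the highest value in dIEC 7, the library with the lowest score. Tyms, thymidylate synthase, read 25.8, 18.6 and 20.1 against 8.78, 4.76 and 4.37, with no overlap. Slbp, Ccne2, Cdc6 and Tyms were chosen after their values were seen.

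The RNA kit depleted ribosomal RNA instead of selecting poly(A) tails, so histone mRNAs that end in a stem-loop were in the libraries. Of 50 replication-dependent histone genes, 44 were listed, and 40 of those were called higher and 0 lower (median 2.10). Their expression goes with DNA replication, and the score holds replication genes, so this direction was built in too. Hist1h1d, a linker histone, read 138, 111 and 154 against 44.1, 29.7 and 29.5. Hist1h1e, another linker histone, differed less, at 212, 200.2 and 238 against 118, 71.2 and 146. The most abundant core histone gene, Hist1h2bc, was level, at 113, 115 and 151 against 142, 117 and 128, and Hist1h1c read 211, 168 and 236 against 180.4, 101 and 192, with the sides overlapping in both. Histone genes are near copies of one another, and how reads shared among them were counted is not known here, so single histone values are uncertain.

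Promoter windows were read for these groups because their members moved together, and 5 are shown for the letters they share. Each window runs from 250 bases before to 50 bases after a start annotated by RefSeq (GRCm38.p6), 300 bases in all, and either strand was searched. In the mitosis list, 27 of 30 genes matched the table and gave 29 windows. CCAAT, the box bound by NF-Y, was present in 23 of 29 (79.3%) of these, against 4498 of 11858 (37.9%) of windows of fitted genes. It was also in 11 of 13 (84.6%) cholesterol synthesis, 15 of 28 (53.6%) replication and 12 of 23 (52.2%) brush border enzyme windows. TTTGAA, the core of the cell cycle genes homology region (CHR), was present in 24 of 29 (82.8%), against 1396 of 11858 (11.8%), and both together in 21 of 29 (72.4%), against 570 of 11858 (4.81%). In the replication list, TTTGAA was in 2 of 28 (7.14%), and an E2F spelling (TTTGGCGC, TTTCCCGC or TTTCGCGC) in 9 of 28 (32.1%), against 398 of 11858 (3.36%) of fitted genes and 1 of 29 (3.45%) of mitosis windows. Windows of all genes called higher, outside the score, held TTTGAA in 362 of 2352 (15.4%) and an E2F spelling in 135 of 2352 (5.74%), and those of genes called lower in 207 of 1957 (10.6%) and 38 of 1957 (1.94%). CAAAGTCC, a spelling bound by HNF4, was in 5 of 23 (21.7%) brush border enzyme windows, against 176 of 11858 (1.48%) of fitted genes. In the other absorptive lists it was in 0 of 16 (0%) for fat absorption, 1 of 23 (4.35%) for transporters and 1 of 15 (6.67%) for microvillus genes, and genes called lower as a whole held it in 43 of 1957 (2.20%). These are matches of letters in a window, not sites; 10 motif sets were searched in all, and no factor was measured.

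The windows below are the most abundant members of each list that hold the motif, in lower case, written 5′ to 3′ along the gene's strand. Capitals mark CCAAT and TTTGAA in Kif11 and Smc2, only the E2F spellings in Mcm6 and Mcm7, and only CAAAGTCC in Ace; Mcm6 and Mcm7 also hold CCAAT or its reverse complement, left in lower case. Kif11 (chr19:37376132-37376431, plus strand) and Smc2 (chr4:52438971-52439270, plus strand) hold CCAAT and TTTGAA: in Kif11 both read as the reverse complement (as ATTGG and as TTCAAA), and in Smc2 CCAAT reads forward and TTCAAA stands in 2 places. Mcm6 (chr1:128359656-128359955, minus strand) and Mcm7 (chr5:138171834-138172133, minus strand) hold E2F spellings, 3 in Mcm6, of which a pair overlaps, and 2 in Mcm7. Ace (chr11:105967698-105967997, plus strand) holds CAAAGTCC on the reverse strand.
Kif11: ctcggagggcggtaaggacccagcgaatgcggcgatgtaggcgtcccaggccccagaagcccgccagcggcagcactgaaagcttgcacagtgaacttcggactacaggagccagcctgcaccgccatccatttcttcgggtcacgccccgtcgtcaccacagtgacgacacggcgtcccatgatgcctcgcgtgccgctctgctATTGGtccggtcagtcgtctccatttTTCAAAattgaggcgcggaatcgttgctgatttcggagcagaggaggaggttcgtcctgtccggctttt
Smc2: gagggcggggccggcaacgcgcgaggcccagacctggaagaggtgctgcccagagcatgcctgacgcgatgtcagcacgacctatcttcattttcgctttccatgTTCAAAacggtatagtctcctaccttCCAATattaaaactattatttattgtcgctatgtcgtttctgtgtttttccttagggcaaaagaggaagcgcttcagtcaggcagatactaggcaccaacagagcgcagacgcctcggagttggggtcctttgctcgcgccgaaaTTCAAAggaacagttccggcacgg
Mcm6: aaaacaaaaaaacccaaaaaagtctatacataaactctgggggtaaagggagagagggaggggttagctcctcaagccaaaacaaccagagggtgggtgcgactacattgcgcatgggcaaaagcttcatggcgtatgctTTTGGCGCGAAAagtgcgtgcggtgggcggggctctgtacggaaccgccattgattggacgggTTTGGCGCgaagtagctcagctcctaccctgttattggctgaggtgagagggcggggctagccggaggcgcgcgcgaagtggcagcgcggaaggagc
Mcm7: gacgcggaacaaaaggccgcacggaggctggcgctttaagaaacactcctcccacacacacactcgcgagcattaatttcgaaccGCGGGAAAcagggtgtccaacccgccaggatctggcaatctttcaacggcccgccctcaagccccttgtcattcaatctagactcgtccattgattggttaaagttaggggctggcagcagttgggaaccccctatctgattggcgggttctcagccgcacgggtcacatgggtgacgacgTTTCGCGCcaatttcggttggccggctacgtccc
Ace: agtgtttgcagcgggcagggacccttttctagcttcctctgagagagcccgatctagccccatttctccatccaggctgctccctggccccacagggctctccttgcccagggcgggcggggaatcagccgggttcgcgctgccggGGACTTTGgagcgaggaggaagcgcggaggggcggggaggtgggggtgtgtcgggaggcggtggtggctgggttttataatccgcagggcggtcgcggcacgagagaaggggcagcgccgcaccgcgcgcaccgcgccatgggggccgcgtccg

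Mcm7, the helicase partner of Mcm6, read 58.0, 43.7 and 42.2 against 17.9, 16.3 and 16.1. Ace, the angiotensin-converting dipeptidase of the brush border, went the other way, at 1628, 2468 and 3051 against 5903, 5936 and 7242. The sides overlapped in neither gene.

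Biosynthesis of a growing cell was higher with the cycle genes. All 21 ribosome biogenesis genes were called higher (median 1.57), and at least 19 of them were called whichever library was left out. Ncl, the nucleolar scaffold nucleolin, read 159, 113 and 102 against 61.1, 56.7 and 49.0, and Npm1, nucleophosmin, read 115, 67.7 and 68.6 against 33.4, 25.2 and 19.0. Nucleotide and one-carbon synthesis followed, with 21 of 22 called higher and 0 lower (median 1.63). Its most abundant members by count were Mthfd1, a folate enzyme (1.71, SE 0.18), the purine enzymes Atic (2.04, SE 0.20) and Gart (2.01, SE 0.25), and Shmt1, serine hydroxymethyltransferase (2.26, SE 0.30). In chromatin maintenance 10 of 12 were called higher, among them Dnmt1, the maintenance DNA methyltransferase, at 108, 85.0 and 85.9 against 32.6, 31.0 and 25.3, and Cbx5, a heterochromatin protein, at 144, 105 and 100.3 against 69.9, 61.8 and 44.7. Without dIEC 9, 6 of these 12 were called, and without dIEC 7, 7 were.

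Crypt stem cell genes were called higher in 19 of 22 cases and lower in 0 (median 1.99). Slc12a2, a chloride cotransporter of crypt cells, read 385, 283 and 204 against 130.5, 57.4 and 44.4, and Prom1 read 134, 124 and 135 against 67.6, 40.8 and 33.6. Lgr5, the receptor that marks stem cells, was low everywhere and read 15.6, 12.8 and 9.37 against 5.17, 1.70 and 0.46. Ascl2, its transcription factor partner, read 7.03, 6.04 and 4.29 against 1.44, 1.08 and 0.345, and Myc read 16.7, 18.4 and 18.2 against 5.17, 5.20 and 3.11. The members not called were Axin2, Rnf43 and Rgmb. Axin2, which helps degrade beta-catenin, read 90.7, 107 and 116 against 90.8, 61.4 and 150.3 (0.22, SE 0.28), with its highest value in dIEC 7. Rnf43, which removes Wnt receptors, read 49.9, 54.5 and 46.0 against 56.3, 58.9 and 53.2, with the sides overlapping in both. Fewer stem genes were called without dIEC 9 (11), without dIEC 7 (11) or without WT 2 (12). Lgr5, Ascl2, Myc, Rnf43 and Rgmb were named after their values were seen.

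Secretory lineages did not move as one. All 13 fitted Paneth genes had a positive log2 fold change (median 1.66), yet only 5 were called higher. Lyz1, lysozyme, read 373, 633 and 305 against 328, 50.7 and 91.3, so WT 4 lay inside the crypt-rich range while WT 10 and dIEC 7 were far below it. Itln1, an intelectin, read 241, 353 and 181 against 163, 50.1 and 56.9, and the alpha-defensin gene Defa24 read 347, 492 and 223 against 233, 57.0 and 70.5. Mmp7, the protease that activates alpha-defensins, was even on the crypt-rich side and called, at 30.8, 31.7 and 36.2 against 15.5, 3.95 and 6.10. Without WT 4, 12 of the 13 were called, without WT 10, 8, and without WT 2, dIEC 9 or dIEC 7, 1. The alpha-defensin genes are near-identical copies, so their single values are uncertain.

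Goblet cell genes followed single libraries instead of sides: 1 of 17 was called higher (Spink4, 1.39, SE 0.36) and 0 lower. Muc2, the gel-forming mucin, read 401, 902 and 1579.7 against 4115, 315 and 1251. Fcgbp, a mucus protein, read 3283, 7757 and 13170.4 against 31182, 2884 and 10416, Zg16, a lectin, 1739, 2782 and 4311 against 8742, 1086 and 3082, and Tff3, trefoil factor, 858, 1203 and 1994 against 3166, 442 and 1168. In each of these, WT 4 was the highest and WT 10 the lowest of the villus-rich side, and dIEC 9 was the lowest of the crypt-rich side. Without WT 4, 7 goblet genes were called higher, without WT 10, 2 were called higher and 5 lower, and without WT 6, dIEC 9 or dIEC 7, none was called. By total counts 4 were called higher.

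Of 25 enteroendocrine genes 3 were called, each higher: Gcg, Cck and Tac1. That is a smaller share than the 20.1% of all fitted genes. Gcg, the precursor of the GLP hormones, read 63.5, 55.7 and 51.1 against 19.1, 17.8 and 13.7, 3.59-fold by the fit and with no overlap. Gcg was called whichever library was left out, but the count for the list was not stable. It was 1 higher and 1 lower without dIEC 9 or dIEC 7, 1 higher without WT 2, 2 without WT 10, 5 without WT 4 or WT 6, and 7 by total counts. The more abundant hormones of the same list by count did not share this. Nts, neurotensin, read 195, 97.5 and 99.7 against 186, 139.5 and 126, Gip read 101, 98.9 and 117 against 141, 102 and 74.6, and Sct, secretin, read 78.5, 51.3 and 66.5 against 74.8, 71.0 and 57.7. Chgb, a granin, read 123, 119 and 66.8 against 79.6, 40.9 and 70.7. No tuft gene of 13 fitted was called; Dclk1, their best known marker, read 11.4, 8.77 and 7.34 against 3.73, 7.81 and 3.57. Without WT 10, 7 tuft genes were called higher, and 2 by total counts. In the Notch list, Notch1 (1.07, SE 0.15), Notch2 (1.32, SE 0.18), their modifier Lfng, the target Hes1 (0.73, SE 0.15) and Sox4 (1.75, SE 0.34) were called higher. The ligand genes Dll1, Dll4 and Jag1 and the secretory regulator Atoh1 were not called, and Dll1 read 51.3, 67.6 and 45.3 against 68.1, 44.4 and 92.9. Gcg, Notch1, Notch2, Lfng and the uncalled Notch members other than Dll1 were named after their values were seen.

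**Figure D3:**
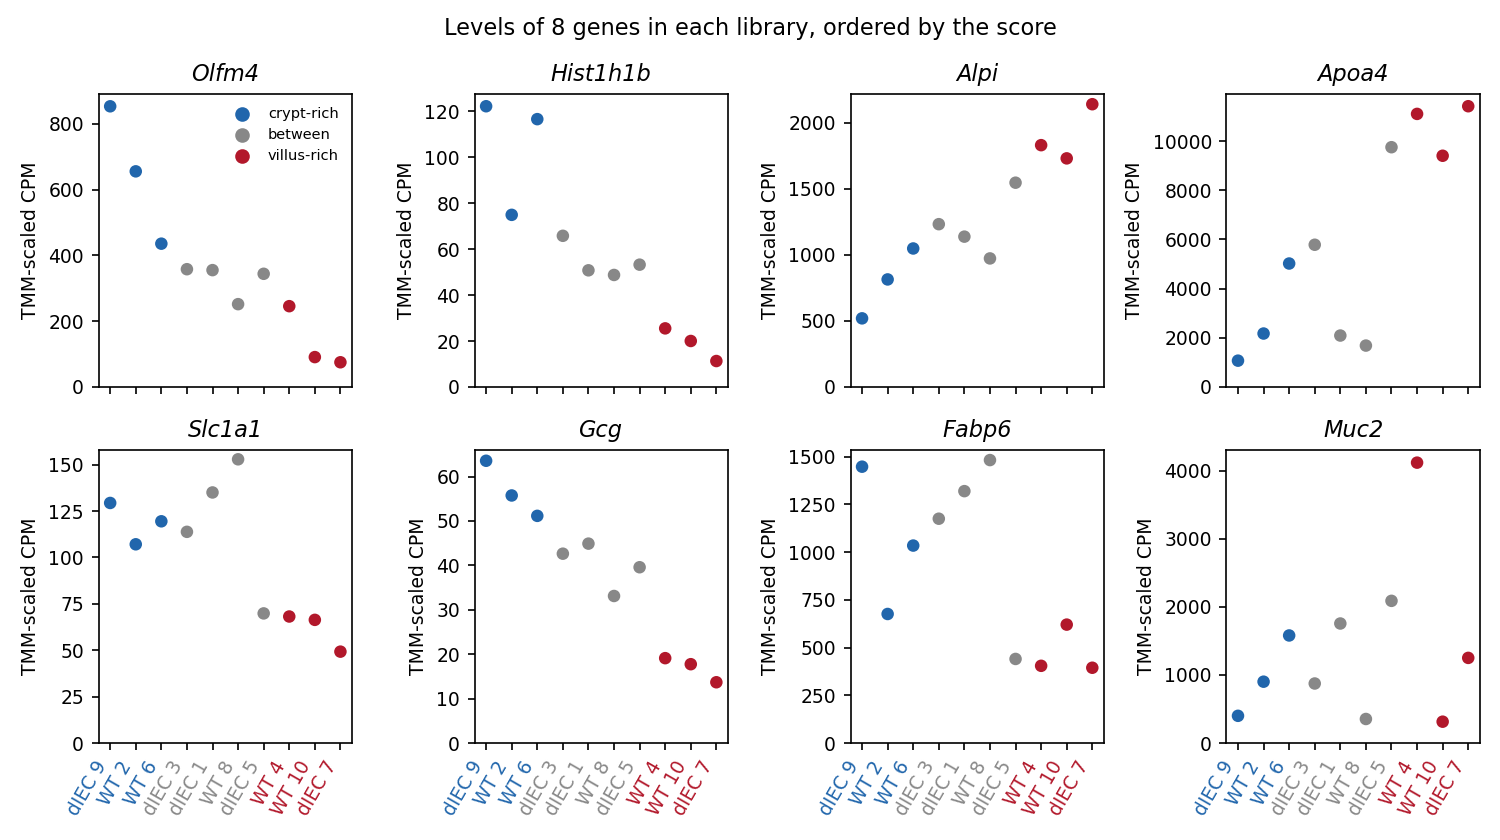
TMM-scaled CPM of 8 genes in the 10 libraries, ordered by score and coloured by side. Olfm4, Hist1h1b and Gcg are higher on the crypt-rich side and Alpi and Apoa4 on the villus-rich side with no overlap, Slc1a1 and Fabp6 are higher on the crypt-rich side, and Muc2 is highest in WT 4.

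The absorptive program was higher on the villus-rich side. Of 18 brush border enzymes 11 were called lower in crypt-rich libraries and 0 higher (median -0.85). Lct, lactase, read 1458, 2419 and 3108 against 6051, 6683 and 7307. Anpep, aminopeptidase N, and Sis, sucrase-isomaltase, were not called: Anpep read 6334, 7880.0 and 7743 against 10223, 9619 and 16673, and Sis 2386, 2920.5 and 2302 against 3966, 5673 and 2958. Both were highest on the villus-rich side in a single library, dIEC 7 for Anpep and WT 10 for Sis. Of 15 microvillus genes 12 were called lower and 0 higher (median -0.73), and by total counts 6 lower and 1 higher. Examples were Cdhr2, a protocadherin of the microvillus tip link, at 1833, 2190.3 and 2909 against 5024, 4525 and 6777, and Vil1, villin, at 2969, 3404 and 3740.1 against 5135, 5584 and 7352.

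Nutrient transporters were called lower in 14 of 16 cases. Slc5a1, the sodium-glucose cotransporter, read 1201, 1460.0 and 1446 against 2221, 2984 and 2273, Slc15a1, the peptide transporter, 664, 770.0 and 932 against 1651, 1469 and 2245, and Slc6a19, the neutral amino acid transporter, 446, 560.3 and 804 against 1688, 1353 and 2247. The exceptions were Slc7a9, not called (-0.47, SE 0.16), and Slc1a1, the glutamate and aspartate transporter, which was called higher. Slc1a1 read 129, 107 and 119 against 68.2, 66.4 and 49.3 with no overlap, and among the 4 libraries between the sides 69.9 to 153, with dIEC 5 just above the villus-rich side and the others within or above the crypt-rich range. Slc1a1 was called higher whichever library was left out. Slc1a1 and Slc7a9 were named after their values were seen.

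Fat absorption had a median of -0.98, with 17 of 20 called lower and 0 higher. Apob, the structural protein of chylomicrons, read 6596, 7466 and 9073 against 17295, 16394 and 21716. Apoa1 read 4159, 6099 and 7398 against 12219, 10959.5 and 16236, and Fabp2, a fatty acid carrier, 4031, 3681 and 4583 against 6979, 7896 and 9082. Creb3l3, a transcription factor of apolipoprotein genes, read 225, 342 and 465 against 885, 904 and 1061. Calls in the absorptive lists depended on single libraries. Without WT 2 the lower calls were 5 of 18 enzymes, 7 of 16 transporters, 4 of 20 fat genes and 1 of 15 microvillus genes. Without dIEC 9 they were 9, 11, 8 and 4, without dIEC 7 9, 11, 9 and 5, without WT 4 9, 13, 16 and 4, without WT 6 12, 12, 15 and 10, and without WT 10 11, 11, 12 and 10. No member was called higher in these fits except Slc1a1.

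Genes that mark the villus tip had the most negative list median, just below that of fat absorption, but only 3 of 12 were called. Ada, adenosine deaminase, read 48.0, 39.0 and 206 against 506, 196 and 399, with WT 6 at the level of WT 10. The ectoenzymes Enpp3 and Nt5e and the nucleoside transporter Slc28a2 were also higher in WT 6 than in the other crypt-rich libraries: Enpp3 read 28.0, 40.9 and 135 against 348, 216 and 272, Nt5e 11.98, 9.51 and 50.1 against 103, 71.3 and 86.7, and Slc28a2 24.7, 19.2 and 85.5 against 213, 93.4 and 120.2.  Without WT 6, 7 tip genes were called lower, and without WT 2, WT 4, dIEC 9 or dIEC 7, 1 was. Defence genes of the villus base had a median of 0.54, and 12 of 14 had a positive log2 fold change. Only 2 of 14 were called higher, a smaller share than the 20.1% of all genes. The count was 0 without dIEC 9 or WT 4, 1 without WT 2 or dIEC 7, and 4 without WT 10. Of the 2, Lypd8, a secreted protein that binds flagella, read 1433, 1623 and 1500.3 against 1164, 974 and 1084. Reg3b, an antimicrobial lectin, read 1591, 2867 and 4985 against 2051, 727 and 1734, and Pigr, the receptor that exports IgA, was level at 2782, 3176 and 2915 against 2926, 3093 and 2856. Enpp3, Nt5e and Slc28a2 were named after their values were seen.

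Ileal bile acid genes split, with 3 of 11 called higher and 3 lower, beside 20.1% and 15.1% of all fitted genes. Higher in crypt-rich libraries were Fabp6, the cytosolic bile acid carrier, at 1447, 676 and 1034 against 405, 620.2 and 395, the uptake transporter Slc10a2 at 34.4, 30.2 and 34.6 against 23.8, 15.3 and 18.9, and the receptor Nr1h4 (FXR) at 95.6, 86.2 and 106 against 63.0, 66.6 and 71.4. Lower were Abcc2, an apical conjugate exporter, at 287, 342 and 485 against 1004, 1034 and 909.7, Cyp27a1 (-1.23, SE 0.30) and the receptor Nr1i2 (PXR, -0.50, SE 0.14). The basolateral exporter genes Slc51a and Slc51b were level, at 320.0, 289 and 308 against 312, 336 and 319 and 180.4, 170.0 and 146 against 139, 149.8 and 211. Fgf15, the hormone that FXR induces, read 104, 27.4 and 18.3 against 23.2, 44.6 and 88.0, highest in dIEC 9 and dIEC 7 among the 6. Fabp6, Slc10a2, Nr1h4 and Abcc2 did not overlap between the sides, and Fgf15, Slc51a and Slc51b did. The list median was 0.01, and -0.05 under DESeq2. Without dIEC 9 or dIEC 7, 1 member was called in each direction, and by total counts 5 were called higher and 2 lower. Slc10a2, Nr1h4, Cyp27a1 and Nr1i2 were named after their values were seen.

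Xenobiotic genes were called lower in 13 of 24 cases and higher in 0 (median -0.54). Cyp3a13, a cytochrome P450, read 251, 309 and 404 against 787, 669 and 702, whereas the glucuronosyltransferase gene Ugt1a1 was not called (-0.11, SE 0.20). Cholesterol synthesis ran the other way from fat absorption, with 11 of 18 called higher, 0 lower and a median of 0.70. Hmgcs1, a synthase of the mevalonate pathway, read 294, 251 and 212 against 194, 147 and 189, with no overlap between the sides. Without WT 2, dIEC 9 or dIEC 7, 7 cholesterol genes were called.

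Respiratory chain genes were nearly level: 1 of 24 nuclear genes was called higher (Ndufa4, 0.84, SE 0.21), with a median of 0.20. Atp5b, a subunit of ATP synthase, read 2024, 2155 and 1980.3 against 1792, 2544 and 1803, and WT 8, between the sides, stood at 2959.7. Without WT 10, or with sex as a further covariate, 10 of the 24 were called higher, by total counts 7, and without WT 2, WT 4, dIEC 9 or dIEC 7 none. WT 10 was the only WT female on the sides, so the fit with sex sets it aside and is no separate check. Of the mitochondrially encoded genes, 1 of 7 was called, mt-Nd6, which is read from the light strand (0.64, SE 0.18), and mt-Co1 read 9848, 10583 and 11155 against 11693, 16860.0 and 10601. Targets of PPAR alpha were called lower in 2 of 14 cases, and glycolytic genes in 2 of 13, with Pkm at 257, 369.9 and 337 against 481, 580.1 and 453. Both counts lay near the 15.1% of all fitted genes called lower. Without WT 2 or dIEC 9 none of the PPAR alpha targets was called, and without WT 2, dIEC 9 or dIEC 7 none of the glycolytic genes. The medians of these last 3 lists were -0.21, -0.26 and -0.22, and under scaling by total counts they turned to 0.11, 0.05 and 0.09.

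In the unfolded protein response list, 8 of 19 were called higher and 3 lower. The chaperones Hspa5 (0.52, SE 0.17), Canx (0.56, SE 0.18) and Hsp90b1 (0.65, SE 0.17) were among the higher, and Pdia6, a disulfide isomerase, read 183, 159 and 176 against 92.3, 93.0 and 73.0. The lower ones were the stress factor Ddit3, at 21.4, 24.4 and 25.9 against 40.8, 47.3 and 40.9, the co-chaperone Dnajb9 and Sel1l, of the degradation machinery. By total counts 14 were called higher and 0 lower, without WT 2 2 and 1, without WT 4 2 and 1, without WT 6 4 and 1, without dIEC 9 2 and 1, and without dIEC 7 3 and 1. Pdia6, Ddit3, Dnajb9, Sel1l, Ndufa4 and mt-Nd6 were named after their values were seen.

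**Figure D4:**
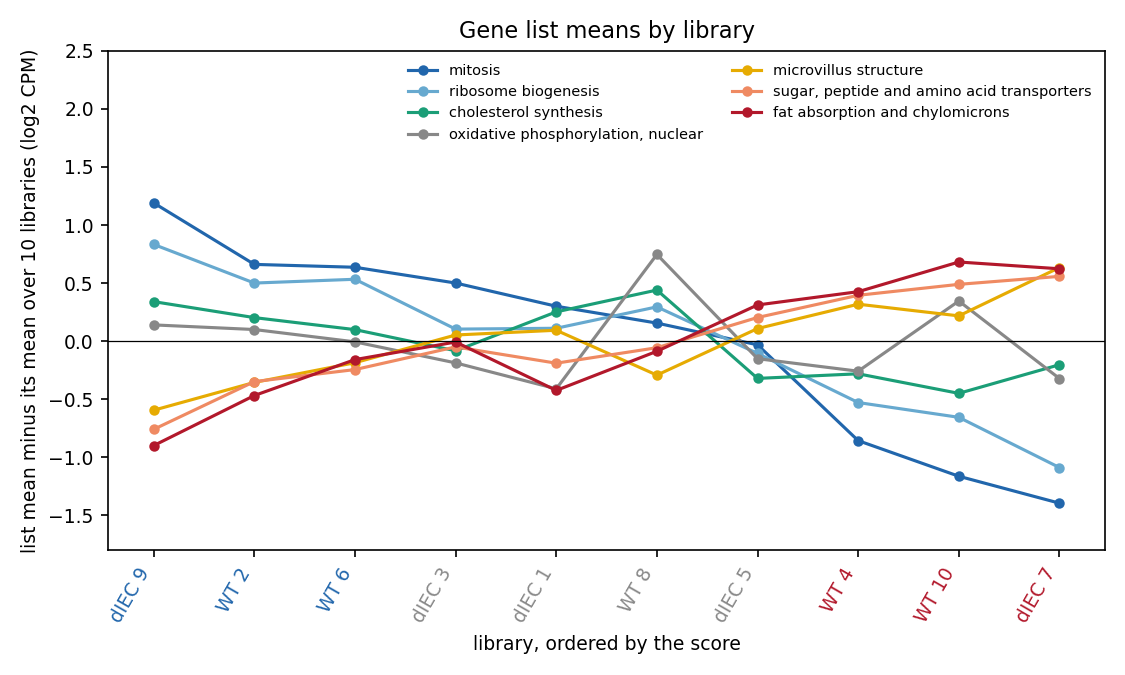
Mean log2 CPM of 7 gene lists in each library, less the list's mean over the 10 libraries, with libraries ordered by score. Mitosis and ribosome biogenesis genes are highest in dIEC 9 and lowest in dIEC 7, fat absorption, transporter and microvillus genes are lowest in dIEC 9, and respiratory chain genes are highest in WT 8.

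Regulators of cell cycle exit were mixed, with 7 of 17 called lower and 3 higher (median -0.32, and close to 0 by total counts). Over all fitted genes 15.1% were called lower and 20.1% higher, so the 3 higher calls were near the background. Mxd1, which opposes Myc at shared targets, read 323, 389 and 597 against 1116, 578 and 1168, the reverse of Myc, though WT 10 lay within the crypt-rich range. Cdkn1a, the inhibitor p21, was lower (-0.72, SE 0.17), while Cdkn1b, the inhibitor p27, and Cdkn2c, the inhibitor p18, were higher (0.41 (SE 0.14) and 0.99, SE 0.24). Ccng2, an atypical cyclin of resting cells, read 113, 120.0 and 132 against 262, 209 and 304. By total counts 4 were called higher and 2 lower. Without dIEC 9 or dIEC 7, 0 exit genes were called higher and 1 lower, without WT 2 1 and 1, and without WT 4 2 and 1.

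Of 12 BMP, Hedgehog and Id genes 4 were called lower (median -0.39): Klf4, a factor of differentiated cells, at 125, 165 and 274 against 532, 298 and 595, Ihh, the hedgehog ligand made by enterocytes, at 77.7, 82.4 and 87.1 against 107, 119.7 and 178, the BMP feedback inhibitor Smad7 (-1.04, SE 0.24), and Bmp8b (-2.15, SE 0.52). Without WT 2, dIEC 9 or dIEC 7, 0 of the 12 were called, and without WT 4 1 was higher and 1 lower. The BMP target genes Id1, Id2 and Id3 were not called. Among 18 intestinal transcription factors 6 were called lower and 1 higher; the median of -0.27 became 0.05 by total counts. Hnf4g read 499, 587 and 522 against 888, 805 and 795, whereas its paralog Hnf4a read 791, 848 and 862 against 1025, 859.7 and 1233 and Cdx2, which sets intestinal identity, was level at 153, 171 and 148 against 128, 141 and 199. By total counts 4 were called higher and 1 lower, and without WT 2 or WT 4 none of the 18 was called lower. Of 15 immediate early genes, 2 were called higher and 3 lower (median -0.20, 0.12 by total counts), beside 20.1% and 15.1% of all fitted genes. By total counts 3 were higher and 0 lower, and without WT 2 1 was higher and 0 lower. Fos read 434, 483 and 574 against 905, 563 and 876. Keratins split: Krt20, of mature cells, read 992, 1149 and 1658 against 2363, 2106 and 3031, while Krt19 read 1954, 1753 and 1807 against 818, 897 and 822 and Krt18 had a log2 fold change of 1.03 (SE 0.24). Epcam, used to sort the cells, read 1641, 1468 and 1657 against 2048, 1751 and 2565 and was not called. Cdkn1a, Cdkn1b, Cdkn2c, Smad7, Bmp8b, Cdx2, Krt18, Krt19 and the Id genes other than Id3 were named after their values were seen.

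The contrast could be read in each genotype from separate libraries. Across the 12950 genes, the difference WT 2 and WT 6 minus WT 4 and WT 10 and the difference dIEC 9 minus dIEC 7 had a Pearson correlation of 0.80 and a Spearman correlation of 0.81, across genes, which are not independent replicates. They share no library, but the same score chose both pairs. The sign was the same in 10771 genes (83.2%). For mitosis the median difference in log2 CPM was 1.69 in WT and 2.64 in dIEC, for crypt stem cell genes 1.48 and 2.33, and for fat absorption -0.82 and -1.33. MHC class II genes went opposite ways, with medians of 1.01 in WT and -0.87 in dIEC, and 0 of 7 called. Cd74, the invariant chain, read 1325, 716 and 262 against 207, 87.1 and 2805, and H2-Aa 493, 143 and 52.2 against 39.1, 25.2 and 986, so that dIEC 7 held the highest and dIEC 9 the second highest value of the 10 libraries in both. H2-Ab1 itself was near 0 in dIEC 9 and dIEC 7. Interferon response genes were called higher in 2 of 26 cases and lower in 2 (median -0.10, 0.24 by total counts), smaller shares than the 20.1% and 15.1% of all fitted genes. Without WT 10 1 was higher and 6 lower, and without WT 4 0 were called. Irf7, an interferon-induced regulator, read 90.0, 121 and 119 against 196, 155 and 269.8.

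**Figure D5:**
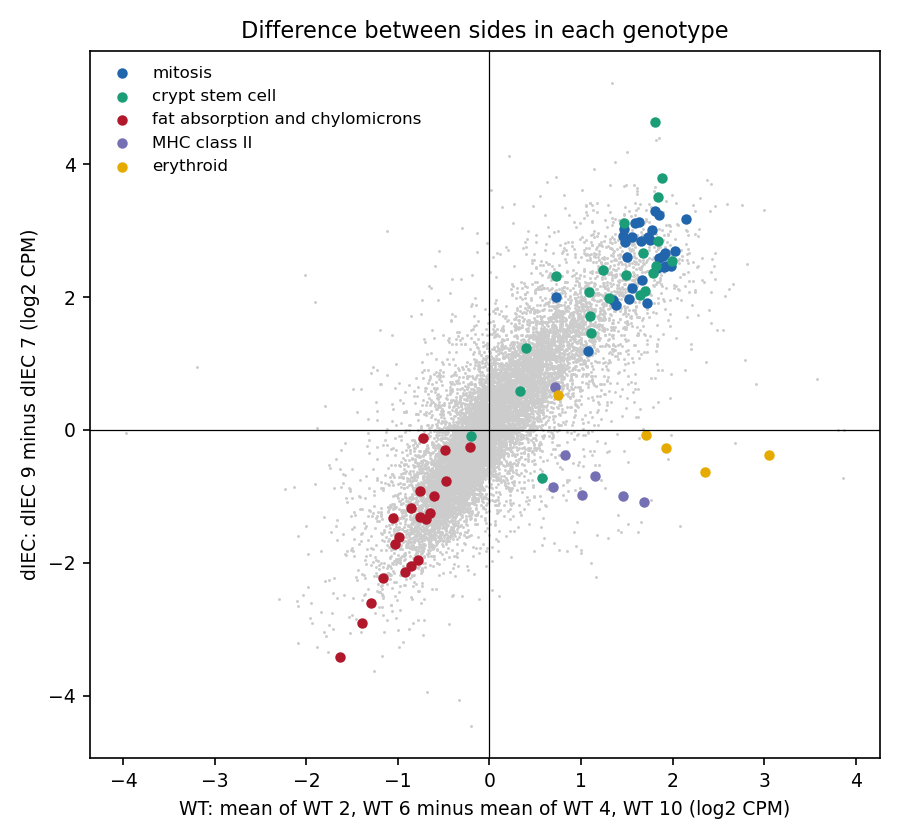
Each point is a gene: the difference between sides in WT libraries (x axis) and in dIEC libraries (y axis), in log2 CPM, with 5 gene lists coloured. Mitosis and most crypt stem cell genes lie at upper right and fat absorption genes at lower left, while most MHC class II and erythroid genes lie at lower right.

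Markers of other cell types were low on both sides. Of 12 general leukocyte genes 3 were listed, with Ptprc (CD45) at 0.794, 0.413 and 0.781 against 0.361, 0.628 and 0.691, and 2 of 16 intraepithelial T cell genes, Gzma at 1.28, 0 and 0.312 against 0.361, 0.09 and 1.38 and Lck at 0.733, 0.413 and 0.078 against 1.08, 0.179 and 0.46. Of 9 B and plasma cell genes 2 were listed, with Igha at 0.978, 0.413 and 3.05 against 2.04, 1.53 and 1.61. Of 11 myeloid genes 3 were listed, with Itgam at 17.8, 13.4 and 16.1 against 7.70, 9.33 and 10.7, which was called higher, as was Lcp1, an actin bundler of leukocytes, at 9.90, 6.86 and 4.53 against 4.45, 2.78 and 1.61. Cd68 read 2.51, 5.29 and 3.98 against 3.73, 4.40 and 4.49. Of 13 stromal and endothelial genes 4 were listed and 0 called, and Pdgfrb read 6.17, 4.13 and 6.79 against 5.05, 4.13 and 8.98. Globin genes followed neither side: Hbb-bs read 16.3, 17.0 and 13.2 against 9.14, 0.179 and 21.3, and 0 in WT 8, with 0 of 5 erythroid genes called. Summed over the listed members, leukocyte genes ran from 5.78 to 11.7 against 2.76 to 5.29, myeloid genes from 18.9 to 20.7 against 12.03 to 16.5, T cell genes from 0.39 to 2.02 against 0.269 to 1.84, B and plasma cell genes from 0.496 to 3.12 against 1.53 to 2.29, stromal genes from 11.4 to 12.3 against 7.45 to 13.4 and erythroid genes from 17.3 to 24.0 against 0.179 to 28.4 CPM. Only the leukocyte and myeloid sums did not overlap between the sides, and Lcp1 and Itgam made up most of them. The mean log2 CPM of both lists did overlap. It ran from 0.03 to 1.16 against -0.22 to 0.23 for leukocyte genes. For myeloid genes it ran from 1.36 to 1.66 against 1.51 to 2.06, lower on average on the crypt-rich side. The part of these cells in the differences above was not tested.

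Of the 4 libraries between the sides in score, at least 3 lay between the side means in 2207 of the 2608 genes called higher (84.6%) and in 1673 of the 1949 called lower (85.8%), against 5975 of the 12950 genes fitted (46.1%). All 4 did so in fewer: 1257 of the genes called higher (48.2%), 634 of those called lower (32.5%) and 2409 of all (18.6%). The calls and these shares use the same side means, and nothing is read from the difference. These libraries had no part in the fit, though their score placed them there. WT 8 departed from the order in many genes, of which 3 are given here, chosen after their values were seen. Its Apoa4, at 1683 CPM, and its Muc2, at 354, were near the lowest of the 10 libraries although its score was 4.45, and its Krt19, at 2657, was the highest. Whole lists departed too. Its mean log2 CPM was the lowest of the 10 libraries for villus tip (5.29), cell cycle exit (5.80) and BMP, Hedgehog and Id genes (4.75). It was also the lowest for enteroendocrine (2.66), interferon response (2.69), immediate early (6.65) and erythroid genes (-2.52), among others. It was the highest for cholesterol synthesis (6.09), the unfolded protein response (7.71), tuft cell (2.41), nuclear respiratory chain (8.36) and PPAR alpha target genes (6.06).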

How the data were processed

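RNA from sorted epithelium of 10 mouse ilea, 5 WT and 5 dIEC with 1 mouse per library, was sequenced as stranded total RNA after ribosomal RNA depletion, per the labels. Raw counts per gene were deposited by the authors. The submitters' processing notes name Novoalign and mm10. How reads were assigned to genes, with or without strand, and from which annotation is not given in the sources used here. Of the symbols, 20 had been turned into dates and 133 genes had none.

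The 3 highest and 3 lowest libraries by score were compared, WT and dIEC in the same numbers on each side. The libraries, gene lists and tests were chosen with earlier results of these data known. Because the same RNA chose the libraries, calls are a description and no gene-level p is given. Counts were filtered with filterByExpr, scaled by TMM and fitted with edgeR 4.0.16 in R 4.3.3 (quasi-likelihood, genotype as covariate, 3 residual degrees of freedom). A gene was called at a Benjamini-Hochberg adjusted p under 0.05. The steps were tested on simulated data. Totals of 9469663 to 13484363 counts per library leave little counting error in genes of more than a few CPM. The spread is that between mice within a side. The sides were picked from the ends of the score, so this spread leaves out variation between mice along the score. It is not the spread of mice taken without such a choice. Replicates on a side differed by more than counting noise.

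Genes named were the 4 markers, the 12 largest fold changes in each direction with a mean of at least 10 CPM, and the 4 most abundant members of each list; others are said to have been chosen after their values were seen, and a few genes under the rule are not reported here. Alternatives were DESeq2 size factors, scaling by total counts, other filters, DESeq2 1.42.0, limma 3.58.1 (voom), sex as covariate, no covariate, 4 libraries a side, the score over all 10 libraries, WT libraries alone, a threshold of 0.1, and leaving out each library. On the sides both dIEC mice and, of the WT mice, only WT 10 were female. There the sex covariate amounts to leaving out WT 10 and cannot adjust for sex separately. Leaving out either dIEC library likewise amounts to comparing the WT libraries alone. Promoter windows and their letters came from RefSeq, GRCm38.p6. Of the 12943 symbols of fitted genes sought there, 9269 matched. Histone symbols did not match. Figures were drawn with matplotlib 3.10.9.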

Additional observations from a re-analysis of the deposited data

Results flagged for a closer look

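In 80 groups of 5 libraries (gene list means by genotype), 2 had a library far from the rest, where chance alone gives about 4. The interferon response list had a mean log2 CPM of 5.00 in dIEC 7, the most villus-rich library, against 4.22 in the next dIEC library and 3.91 in the lowest. The intraepithelial T cell list, of which Gzma and Lck were listed, had a mean log2 CPM of -0.29 in WT 4, against -1.51 in the next WT library and -1.88 in the lowest, all near the level of single counts.

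Of 39 lists compared between genotypes, 2 went opposite ways in every library on the sides, and these differences were not tested. For MHC class II genes the crypt-rich minus villus-rich difference in mean log2 CPM was -0.62 in dIEC and 1.08 in WT. For erythroid genes the differences were -0.17 in dIEC and 1.96 in WT, and WT 10, on the villus-rich side, was near 0 in these genes.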

How the results depend on the processing

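Against 2608 genes higher and 1949 lower in crypt-rich libraries, scaling by total counts gave 4039 and 629, WT libraries alone gave 1296 and 636, 4 libraries a side gave 1229 lower, and the score fitted over 10 libraries gave 3521 lower. Leaving out 1 library gave 1240 to 2643 higher and 563 to 1919 lower, with fewer samples in each fit. The other settings, DESeq2 and limma among them, stayed within 1.5 times, though under DESeq2 lower calls (2395) outnumbered higher ones (2365). Values per gene and setting were compared for the named genes and the other members of the lists. Of these, 0 called in the main fit reversed, 768 were no longer called, 332 became called and 9251 were counted as unchanged. A gene not called in the main fit was counted as unchanged when its sign changed. Of the list medians, 519 moved by less than the replicate spread and 76 by more. The same 6 libraries were chosen under both other scores, which use the same genes or processes and are no independent check. No paired analysis was possible because no replicate number is shared between the libraries compared. With 3 libraries a side and 3 residual degrees of freedom, differences within the spread between mice of a side were not detectable. Genes of a few counts are the least precise.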
